A study of Procotyla fluviatilis with 12 samples.

Results

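The response to amputation in the body region of *Procotyla fluviatilis* that does not regenerate was measured in 6 of the 12 RNA-seq libraries of the study. *Procotyla fluviatilis* is a freshwater planarian. The labels call tissue behind a cut posterior to the pharynx regeneration-deficient (Reg-) and tissue behind a cut anterior to it regeneration-proficient (Reg+). The libraries were chosen by their titles. They comprise 3 of Reg- amputated tissue (replicates 1, 2 and 3), excised next to the wound 24 hours after the cut, and 3 of Reg- uncut tissue (replicates 1, 3 and 4), excised at the matching place in intact worms. The remaining 6 libraries hold Reg+ amputated and Reg+ uncut tissue. All worms were adults collected in the field and held for a short time at 18 °C, and each library came from a pool of 3 worms. The labels give no genotype, strain or age beyond adult, and do not say whether the pools of a group came from separate collections, so a p-value reflects only how far these pools vary, part of which may be technical.

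Planarians regrow lost body parts from neoblasts, the dividing stem cells of the adult body, which gather under the wound and form a blastema. In well-studied species a wound first switches on early response genes and then genes that set the identity of the missing part, with Wnt and beta-catenin signalling directing a wound to form a tail or a head. Several planarian species, this one among them, cannot form a head from tissue far behind the pharynx. The comparison addresses which transcripts differ after a cut in tissue of that kind. Transcripts are contigs of a de novo transcriptome, which the files pair with no gene name. No contig is given a gene, a function or a sequence here, and markers of neoblasts or other cell types could not be looked up. One gene can be split over several contigs, so contigs are not a count of genes. In excised tissue, fewer cells of a type and less RNA per cell cannot be told apart.

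The Reg- libraries held 26860786 (amputated replicate 2) to 30870592 (amputated replicate 3) reads. Of 149594 contigs, 58258 (38.9%) had at least 10 reads in 3 or more of the 6 libraries and were tested, and these held 99.0% to 99.4% of the reads of a library. Levels of one contig are given as CPM (reads per 1000000 reads of the library), and levels of different contigs as CPM per kilobase of contig (CPM/kb), both with the edgeR scaling factors (TMM). A contig was called changed at a Benjamini-Hochberg adjusted p under 0.05 in a two-sided edgeR quasi-likelihood test fitted to the 6 libraries. A positive log2 fold change means higher in amputated tissue.

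Similarity between libraries was measured first. The 3 uncut libraries were close to each other, with Spearman correlations across contigs of 0.961 to 0.969. The amputated libraries were not: replicate 2 correlated with replicate 1 at 0.939 and with replicate 3 at 0.935, whereas replicates 1 and 3 correlated at 0.856. That was the lowest value of all 15 pairs, below every pair of an amputated with an uncut library (0.862 to 0.931). Replicate 2 thus lay between replicates 1 and 3 by these correlations. The first principal component, with 48% of the variance, was 171.5 in amputated replicate 1, 90.3 in replicate 2 and -15.3 in replicate 3, against -48.6 to -108 in the uncut libraries. The second, with 31.1%, set amputated replicate 3 apart at -153.7, against 73.7 in uncut replicate 1 at the other end.

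**Figure D1:**
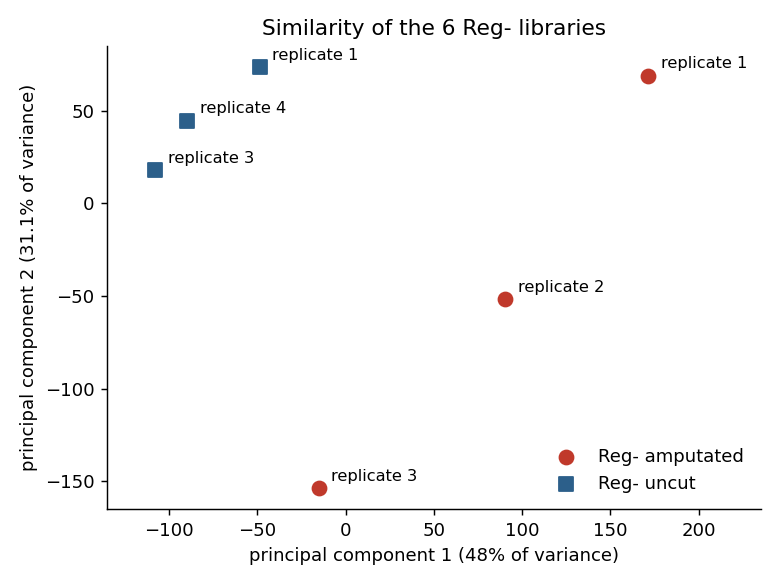
Position of the 3 Reg- amputated (circles) and 3 Reg- uncut (squares) libraries on the first 2 principal components of log2 CPM over 58258 contigs. The uncut libraries sit together, while the amputated libraries run from replicate 1 at 171.5 through replicate 2 to replicate 3 at -15.3 on the first component.

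Amputated replicates 1 and 3 both stood apart, at opposite ends of their group. In replicate 3, 788 contigs were at least 4-fold above both other amputated libraries and 83 were as far below them. Replicate 1 had the reverse form, with 31 above and 1199 below. Replicate 2 had 40 above and 38 below, and no uncut library had more than 150 above or 129 below its 2 partners. Over the 788 contigs the median level was 0.231 CPM in amputated replicate 1, 0.466 CPM in replicate 2 and 2.74 CPM in replicate 3, against 0.77, 1.41 and 1.1 CPM in uncut replicates 1, 3 and 4. Replicate 3 was therefore above the uncut libraries at these medians, and replicates 1 and 2 were below them. Over the 1199 contigs the medians were 0.198, 1.51 and 3.4 CPM in amputated replicates 1, 2 and 3, against 1.06, 1.87 and 1.45 CPM in uncut replicates 1, 3 and 4. At the medians of both sets the order was the same, with replicate 1 lowest, replicate 2 between and replicate 3 highest. The sets share 53 contigs. Sharing needs replicate 2 at least 4-fold from both other amputated libraries, so a small overlap does not make the sets separate. The sets were picked for these differences, so the levels describe the libraries and support no comparison. Across all tested contigs the range within a group reached 4-fold for 13.0% of contigs in amputated tissue and for 1.99% in uncut tissue. Between amputated replicates 1 and 2 alone it was 2.81%, but a range over 2 libraries is smaller by construction than one over 3. The other pairs of amputated libraries were not measured this way.

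The labels of whole groups also need care. Amputated replicates 1 and 2 correlated on average more with the Reg+ uncut libraries (0.949 and 0.962) than with the Reg- uncut libraries (0.881 and 0.921), and replicate 3 at 0.919 and 0.916. Each Reg- uncut library correlated more with Reg+ amputated (0.958 to 0.963) than with Reg- amputated libraries (0.9 to 0.913). With the other libraries of their own group, amputated replicates 1, 2 and 3 averaged 0.897, 0.937 and 0.895, below their values with Reg+ uncut. The Reg- uncut libraries averaged 0.962 to 0.966 with their own group, above their values with Reg+ amputated. Whether labels of whole groups were exchanged cannot be told apart, in this design, from a response that differs by region, so every direction holds as labelled.

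Amputated Reg- tissue differed from uncut Reg- tissue at 1044 contigs, or 1.79% of those tested. Of these, 662 (1.14% of those tested) rose in amputated tissue and 382 (0.656%) fell, as labelled. The changes called were large and unequal in the 2 directions. The read minimum bears on these sizes, since contigs with under 10 reads in every library of the lower group were tested only through the higher one. Contigs that rose had a median log2 fold change of 5.84, with quartiles of 2.82 and 7.81, and 64.4% of them changed at least 16-fold. Contigs that fell had a median of -2.64, with quartiles of -4.53 and -1.92, and 29.6% changed at least 16-fold. Where the lower group held over 100 reads, the medians were 1.89 for contigs that rose and -2.18 for those that fell. Over all tested contigs the median was 0.01, the median size of a change was 0.21, and 2.13% changed at least 4-fold. All 662 and all 382 called contigs had CPM ranges that did not overlap between the groups. Over all tested contigs, called ones included, amputated libraries were all above uncut ones at 8.15% and all below at 6.95%.

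**Figure D2:**
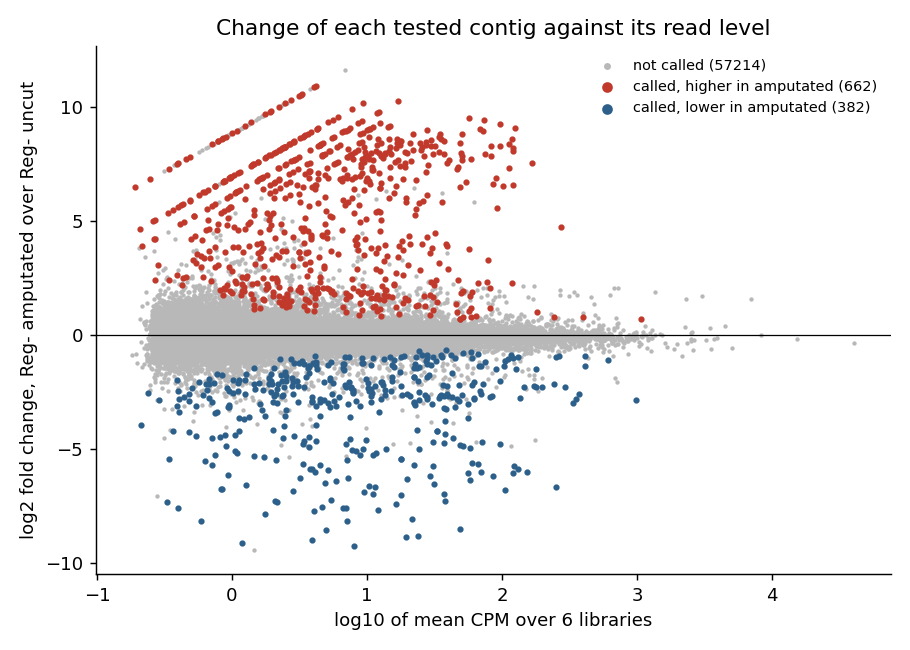
Log2 fold change of Reg- amputated over Reg- uncut tissue (vertical) against the log10 of the mean CPM over 6 libraries (horizontal) for each tested contig, with called contigs in red (662 higher) and blue (382 lower). The red points reach larger fold changes than the blue ones. The slanting lines of points at the upper left are contigs with very few reads in uncut tissue, where the fitted value follows the level.

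The contigs that rose were mostly contigs with hardly any reads in uncut tissue. In 28 of the 662 the uncut libraries held no read at all, and against a floor of 3 reads over the uncut group these were at least 11.2-fold to 236-fold higher in amputated tissue, with a median bound of 59.6-fold. A further 195 had 1 to 5 uncut reads in total. With the 28 contigs set at their bound, the median log2 fold change of those that rose was 5.62. In every amputated library all 662 contigs had reads. Their median level was 5.38, 11.7 and 8.5 CPM in amputated replicates 1, 2 and 3, against 0.183, 0.197 and 0.12 CPM in uncut replicates 1, 3 and 4. The lowest amputated median was replicate 1, and the uncut medians correspond to a few reads per library.

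Contigs that fell included fewer cases of near absence. Only 4 of the 382 had no read in amputated tissue (at least 19.5-fold to 69.9-fold lower), and 26 had 1 to 5 reads. Their median level was 1.09, 1.9 and 1.56 CPM in amputated replicates 1, 2 and 3, against 12.3, 15.1 and 13.0 CPM in uncut replicates 1, 3 and 4. By raw reads, 175 tested contigs had at least 50 reads in each amputated library and at most 5 in each uncut library, and 23 had the opposite pattern. The read minimum favours such contigs: 664 contigs were tested through the amputated libraries alone, with under 10 reads in each uncut library, and 357 of them were called. Through the uncut libraries alone 223 were tested and 82 called. Over all tested contigs 1044 of 58258 (1.79%) were called, 662 higher and 382 lower. Contigs let in by the reads of a single group differ between groups by that choice, so their higher share of calls describes the filter.

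A second class changed in level while present in both groups. Over 100 reads were found in the lower group for 153 of the contigs that rose (23.1%) and for 207 of those that fell (54.2%). The 153 had a median log2 fold change of 1.89, at median levels of 22.7 CPM (amputated) and 4.18 CPM (uncut). The 207 had a median of -2.18, at median levels of 6.21 CPM (amputated) and 40.6 CPM (uncut). These contigs were longer, at a median of 853 nt and 725 nt, than those with 1 to 100 reads in the lower group, at 386 nt among contigs that rose and 395 nt among those that fell. Because the classes were set by reads, and a longer contig collects more reads, the difference in length describes the classes only.

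The contigs with the largest changes that could be estimated were described one by one. The rule took, per direction, the 2 called contigs with the largest log2 fold change. They needed 5 CPM or more on average, 10 reads or more in the lower group and CPM ranges that did not overlap between groups. Separation of the groups in the named contigs therefore follows from the choice. The rule was met by 236 contigs that rose and 217 that fell, before the largest were taken. Contig12545 (835 nt) had 129, 114 and 97.1 CPM in amputated replicates 1, 2 and 3, against 0.146, 0.231 and 0.069 CPM in uncut replicates 1, 3 and 4. All amputated libraries were far above all uncut ones, and they differed little among themselves. Amputated tissue averaged 113 ± 15.9 CPM and uncut tissue 0.149 ± 0.081 CPM (SD, n = 3 each). The log2 fold change was 9.52 ± 0.35 (SE, edgeR adjusted p = 0.000915). By summed reads it was 763-fold higher, with a 95% exact (Clopper-Pearson) interval from 446 to 1430 that covers counting error only. Its uncut reads numbered 13 over 3 libraries, 4, 7 and 2 in replicates 1, 3 and 4, so the fold and its SE both rest on few reads. The SE is derived from the test statistic and is narrower than this interval, so it understates the error of the fold.

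Contig4019 (637 nt) had 86.5, 136 and 215 CPM in amputated replicates 1, 2 and 3, against 0.219, 0.264 and 0.138 CPM in uncut replicates 1, 3 and 4. Here amputated replicate 3 was the highest and replicate 1 the lowest, and neither came near the uncut libraries. Amputated tissue averaged 146 ± 64.6 CPM and uncut tissue 0.207 ± 0.0639 CPM (SD, n = 3 each), with a log2 fold change of 9.43 ± 0.51 (SE) and an adjusted p of 0.00111 by edgeR. By summed reads, 13205 in amputated and 18 in uncut tissue, it was 727-fold higher (interval 460 to 1230).

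In the other direction, contig11879 (638 nt) had 0.403, 0.349 and 0.0604 CPM in amputated replicates 1, 2 and 3, against 82.2, 83.9 and 127 CPM in uncut replicates 1, 3 and 4. All amputated libraries held at most 12 reads of it. Amputated tissue averaged 0.271 ± 0.184 CPM and uncut tissue 97.6 ± 25.2 CPM (SD, n = 3 each), with a log2 fold change of -8.51 ± 0.56 (SE, edgeR adjusted p = 0.00152) and by summed reads a 371-fold lower level (interval 247 to 586). The short contig131703 (204 nt) had 0.268, 0.155 and 0.0604 CPM in amputated replicates 1, 2 and 3, against 41.1, 40.7 and 48.1 CPM in uncut replicates 1, 3 and 4. Its uncut values lay close together, and amputated replicate 3 had the lowest value with 2 reads. The log2 fold change was -8.05 ± 0.41 (SE), with an adjusted p of 0.000982 by edgeR, and by summed reads the level was 270-fold lower (interval 161 to 495).

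**Figure D3:**
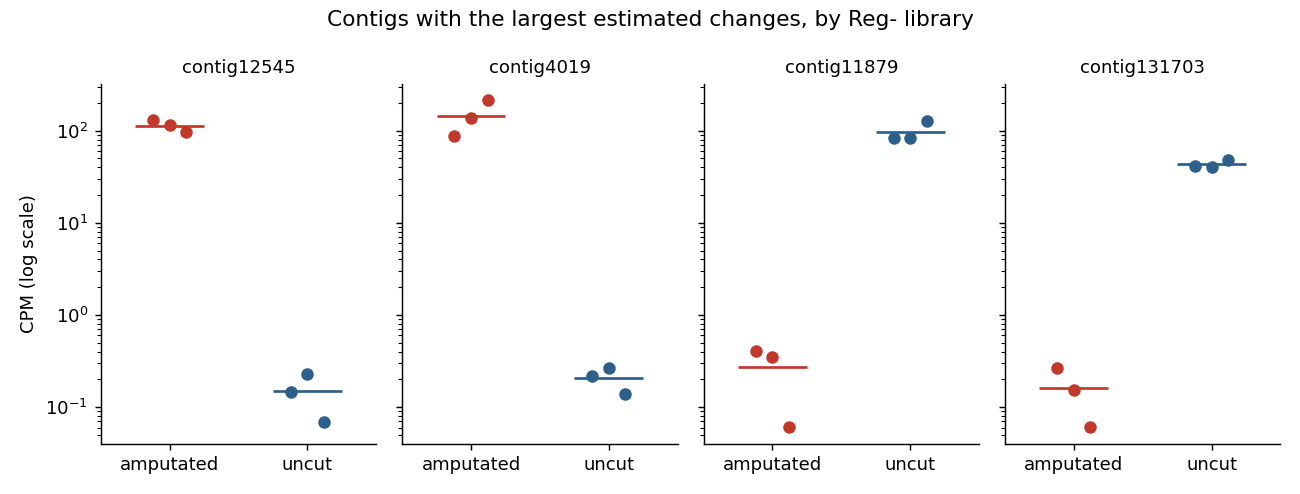
CPM on a log axis of the 4 named contigs in each Reg- library, amputated (red) left of uncut (blue), with points for replicates and lines for group means. Contig12545 and contig4019 lie between 86.5 and 215 CPM in amputated and at or below 0.264 CPM in uncut tissue. Contig11879 and contig131703 lie at or below 0.403 CPM in amputated and between 40.7 and 127 CPM in uncut tissue.

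Among the 10 contigs that rose with the highest mean level, the first, 370 nt long, had 968, 2050 and 1290 CPM/kb in amputated replicates 1, 2 and 3, against 53.6, 50.8 and 54.5 CPM/kb in uncut replicates 1, 3 and 4. Its uncut values were almost equal and its amputated values spread over about a factor of 2, giving a log2 fold change of 4.76 ± 0.31 (SE, edgeR adjusted p = 0.00148). The second, 1483 nt long, is an example of a small change that exceeded the spread: 793, 971 and 910 CPM/kb in amputated replicates 1, 2 and 3, against 537, 517 and 575 CPM/kb in uncut replicates 1, 3 and 4. Its log2 fold change was 0.71 ± 0.12 (SE, edgeR adjusted p = 0.0415). The other 8 had log2 fold changes from 6.56 to 9.26, against the median of 5.84 over all 662 that rose.

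Of the 10 contigs that fell with the highest mean level, the first was 725 nt long. It had 356, 366 and 288 CPM/kb in amputated replicates 1, 2 and 3, against 2780, 2350 and 2060 CPM/kb in uncut replicates 1, 3 and 4. The groups were well apart, with a log2 fold change of -2.83 ± 0.17 (SE, edgeR adjusted p = 0.0012). A contig of 929 nt had a similar change, with 119, 127 and 98.8 CPM/kb in the amputated replicates against 757, 729 and 581 CPM/kb in the uncut ones (log2 fold change -2.58 ± 0.16, SE, edgeR adjusted p = 0.00136). A contig of 240 nt was the only one of the 10 with a change over 16-fold. It had 4.61, 31.7 and 10.3 CPM/kb in amputated replicates 1, 2 and 3, against 751, 1390 and 851 CPM/kb in uncut replicates 1, 3 and 4 (log2 fold change -6.01 ± 0.78, SE, edgeR adjusted p = 0.0161). For the other 7 the log2 fold change lay between -2.25 and -0.91.

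The most highly expressed contigs had a median size of change near that of all tested contigs. For the 100 tested contigs with the highest mean CPM/kb it was 0.23 in log2, against 0.21 over all tested contigs. Of these 100, 2 were called by edgeR, both lower in amputated tissue, against 1.79% of all tested contigs. At least a 2-fold change was seen in 9 of the 100, while 55057 of all 58258 tested contigs changed under 2-fold. The range below is that of the 100 contigs. Their log2 fold changes ran from -2.83 to 2.1, with a median of -0.12. By read level, calls made up 0.827% of tested contigs below a mean of 1 CPM, 1.91% from 1 to 10 CPM, 2.7% from 10 to 100 CPM and 2.87% above. In the first 3 classes more contigs rose than fell (94 against 48, 351 against 160 and 202 against 144), and above 100 CPM 15 rose and 30 fell. By length, 2.25% of contigs under 300 nt were called, 1.92% from 300 to 1000 nt and 1.24% of longer ones. The median length was 427 nt for contigs that rose and 516 nt for those that fell, against 602 nt for all tested contigs. Of the contigs that rose 2.57%, and of those that fell 4.97%, had under 90% uniquely assigned reads, against 5.39% of all tested contigs, and for these the split of reads between near-identical contigs is uncertain.

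Together the contigs that rose took 1.25%, 2.23% and 2.12% of the reads in amputated replicates 1, 2 and 3, against 0.27% in each of the 3 uncut libraries. Those that fell took 0.42%, 0.49% and 0.49% in the amputated replicates, against 1.95%, 2.29% and 2.06% in uncut replicates 1, 3 and 4. The means were 1.87% ± 0.54 in amputated and 0.27% in uncut tissue for the first set, and 0.47% ± 0.04 in amputated and 2.1% ± 0.17 in uncut tissue for the second (SD, n = 3 each). These shares were computed on the libraries that chose the contigs and describe their weight only.

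**Figure D4:**
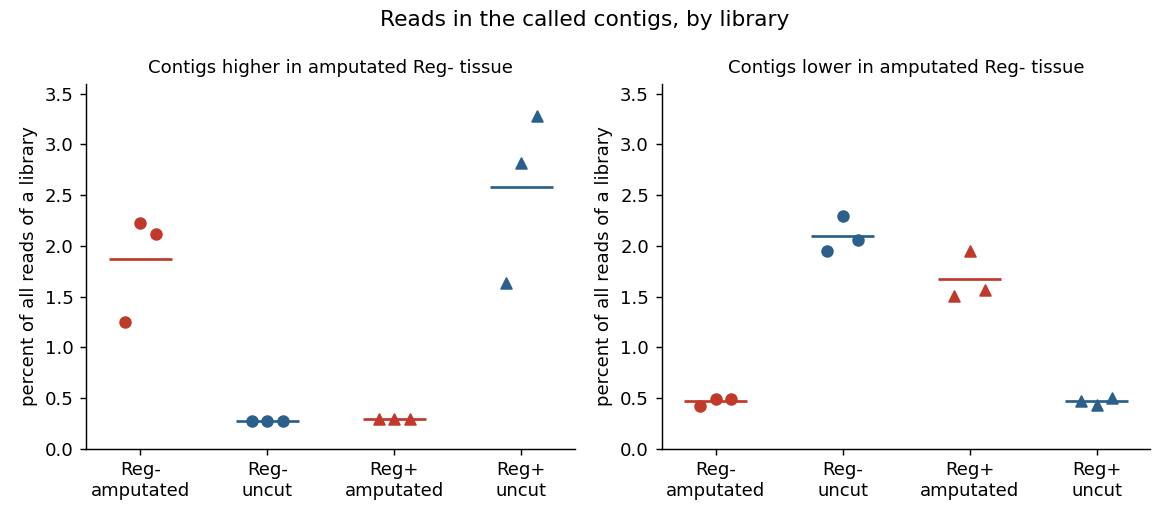
Percent of all reads of each library in the 662 contigs that rose (left) and the 382 that fell (right) in Reg- amputated tissue, with points for libraries and lines for group means, in Reg- (circles) and Reg+ (triangles) tissue. In Reg- tissue the split follows from the choice of the contigs. The Reg+ libraries, which had no part in the choice, show the opposite order, with amputated at 0.29% and uncut at 1.63% to 3.28% on the left.

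The comparison was repeated without amputated replicate 3. It gave 1057 calls (1.81% of tested contigs), of which 704 (1.21%) rose and 353 (0.606%) fell. Of the contigs called with all 6 libraries, 890 were called again. That is 85.2% of the 1044 calls with replicate 3 and 84.2% of the 1057 calls without it. The 154 contigs called only with replicate 3 all kept their direction and had unadjusted p under 0.05 without it. Of the 167 called only without it, 145 had an unadjusted p under 0.05 with it and 166 kept their direction. Both fits share all the other libraries, so the kept calls and directions follow in part from that. The weaker evidence moved more: without replicate 3, 10551 contigs (18.1%) had an unadjusted p under 0.05, against 5021 (8.62%) with it. At least 4-fold lower contigs numbered 953 without replicate 3, against 433 with it, and at least 4-fold higher ones 903, against 805.

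The named contigs were called with and without amputated replicate 3. Without it the log2 fold change was 9.65 for contig12545, 9.06 for contig4019, -7.97 for contig11879 and -7.59 for contig131703, with edgeR adjusted p of 0.000604, 0.000604, 0.000647 and 0.000604. At the medians of the contigs gained without it, replicate 3 lay towards the uncut level. The 113 that then rose had medians of 13.7, 14.7 and 10 CPM in amputated replicates 1, 2 and 3, against 6.17 to 6.37 CPM in the uncut libraries. The 54 that then fell had medians of 3.07, 3.45 and 7.35 CPM in amputated replicates 1, 2 and 3, against 9.6 to 12.6 CPM in the uncut libraries. These sets were defined by leaving replicate 3 out, so its position in them is a description.

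Each library was also read at contigs called from the other 5. For this the read minimum was 10 reads in at least 2 of the other 5 libraries, a setting chosen after seeing the data, so that the library had a part in neither the filter nor the fit. Position was set to 0 at the mean of the remaining uncut and to 1 at the mean of the remaining amputated libraries, on the log2 CPM scale, and is given as a description. Amputated replicate 3 had a median position of 0.97 at the 703 contigs called higher and 0.96 at the 344 called lower without it. It was nearer the amputated mean at 89.5% and 90.7% of them. Amputated replicate 1 stood at 0.8 and 1.13, nearer the amputated mean at 87.3% of 769 and 95.5% of 381 contigs. Amputated replicate 2 stood at 1.12 and 0.83. The uncut libraries had medians between -0.05 and 0.05 and were nearer the amputated mean at 0% to 3.6% of contigs.

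**Figure D5:**
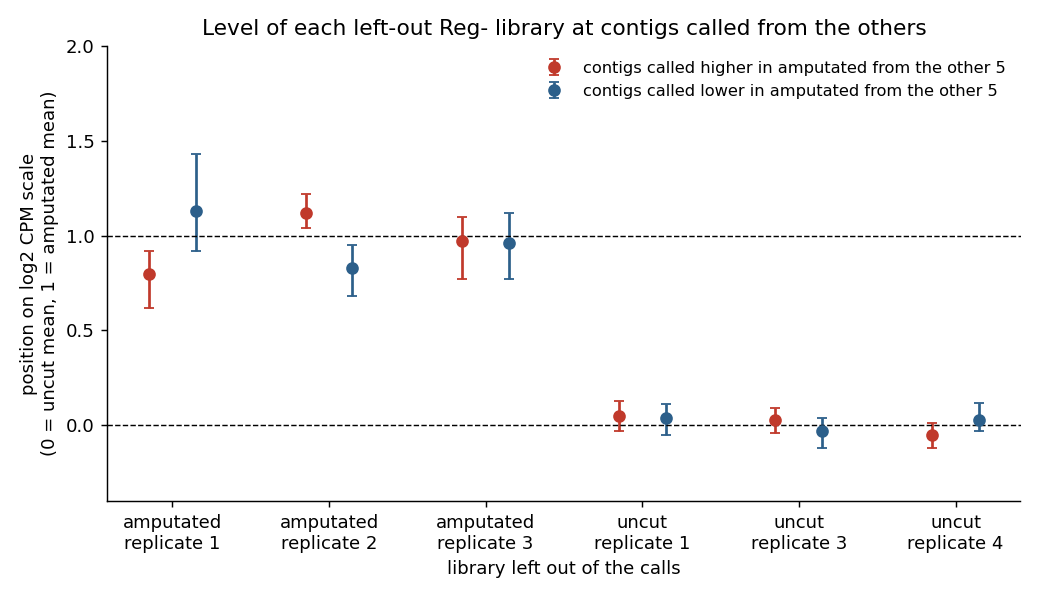
Position of each Reg- library at contigs called from the other 5 libraries, with 0 at the uncut mean and 1 at the amputated mean of log2 CPM. Points are medians and bars run between the quartiles over contigs, red for contigs called higher and blue for those called lower in amputated tissue. The amputated libraries sit between 0.8 and 1.13 and the uncut libraries between -0.05 and 0.05.

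The number of calls changed more without any of the other libraries than without amputated replicate 3. Leaving out a library also leaves fewer residual degrees of freedom, so this number does not measure the weight of a library. By unadjusted p under 0.05 replicate 3 moved most. Without it 10551 contigs passed, against 5021 with all 6 libraries and 3726 to 5403 without another library. The calls at an adjusted p under 0.05 follow. The number was 468, 422 and 444 without uncut replicate 1, 3 or 4, and 619 without amputated replicate 2, against 1155 without amputated replicate 1. A fit to all 12 libraries, with a mean for each group, gave 1593 calls, and DESeq2 gave 1795.

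The called contigs were then read in the Reg+ libraries. At 645 of the 662 contigs that rose in Reg- tissue (97.4%), all Reg+ amputated libraries were below all Reg+ uncut libraries, against 17.1% of all tested contigs, and at 0 were they all above. At 338 of the 382 that fell (88.5%), all Reg+ amputated libraries were above all Reg+ uncut ones, against 18.1% of all tested contigs, and at 0 were they all below. The median log2 difference of Reg+ amputated minus Reg+ uncut was -4.97 for the first set and 2.26 for the second. It also held for contigs present in both groups: of those with over 100 reads in the lower group, 146 of 153 and 172 of 207 had Reg+ libraries in the opposite order without overlap. That the responses of the 2 regions run against each other was known before these sets were drawn, so the counts describe its extent.

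An interaction term over all 12 libraries tested whether the responses differ. It was called at 4570 contigs (7.84% of those tested, edgeR), with the higher response in Reg- tissue at 2737 (4.7%) and in Reg+ tissue at 1833 (3.15%). Of the contigs that rose in Reg- tissue 661 of 662 were among the contigs with the higher response in Reg- tissue, and of those that fell 375 of 382 were among the contigs with the higher response in Reg+ tissue. The interaction uses the same 6 Reg- libraries that chose these contigs, so a high share follows in part from the choice. The difference was not called at 1 contig that rose and at 7 that fell. The number of called interactions was 11993 without Reg- amputated replicate 3, 2815 without Reg- uncut replicate 3, 2892 and 2853 without Reg+ amputated replicates 1 and 2, and 3036 without Reg+ uncut replicate 1.

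Measures of whole libraries were compared last. After thinning to the smallest library total, 53844, 54091 and 59762 contigs had at least 10 reads in amputated replicates 1, 2 and 3, against 53668, 56565 and 55949 in uncut replicates 1, 3 and 4. Amputated replicate 3 had the most and the groups overlapped. The means were 55899 ± 3348 in amputated and 55394 ± 1526 in uncut tissue (SD, n = 3 each; exact two-sided permutation p = 0.8, where 3 against 3 cannot go below 0.1). The difference of 505 contigs was -1430 without amputated replicate 3 and -358 without uncut replicate 1. With a minimum of 1 read all amputated libraries were above all uncut ones, at 116877, 116294 and 125945 against 108389, 113756 and 112509 contigs (exact permutation p = 0.1, the smallest possible). The 100 contigs with the most reads took 21.8%, 21.1% and 17.6% of reads in amputated replicates 1, 2 and 3, against 21.5%, 20.1% and 20.3% in uncut replicates 1, 3 and 4, with replicate 3 of the amputated group the lowest (difference of means -0.461 percentage points, exact two-sided permutation p = 0.9). Without amputated replicate 3 that difference was 0.82 percentage points.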

How the data were processed

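Per the labels' protocols, RNA from pools of 3 worms was made into TruSeq libraries and sequenced on an Illumina HiSeq. Each table lists, per the file headers, the length of a contig, the count of all its reads, the count of its unique reads and its RPKM. The deposited counts are raw. The deposited RPKM were recomputed from total reads to within 0.0078 and not used. How reads were aligned and counted, multiple matches included, is not given in the sources used here. Depth and TMM factors (0.9563 to 1.073) differed little between the 6 libraries.

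Total counts of 58258 contigs were tested with edgeR 4.0.16 (R 4.3.3; TMM, quasi-likelihood, Benjamini-Hochberg) on the 6 libraries, and on all 12 for the interaction. The standard error is the log2 fold change divided by the square root of F. It is derived from the test against no change, so for large folds with few reads in the lower group it can understate the error. Log2 CPM used a prior count of 2. Pairs of libraries of one group differed by a chi-square per degree of freedom of 9.79 to 73.1, more than counting noise gives. Named contigs follow the rule in the text, fixed with the comparisons and settings. The comparison, sets and rule were chosen with earlier results of these data known. Intervals and floors cover counting error only. Alternatives used limma 3.58.1 and DESeq2 1.42.0.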

Additional observations from a re-analysis of the deposited data

Results flagged for a closer look

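With 3 libraries in a group, no test for an outlying library was made. The results singled out here are differences between the amputation responses of the 2 regions, each by the edgeR interaction test over 12 libraries. The difference was called at 4570 contigs. The log2 difference, Reg- response minus Reg+ response, was 18.8 for contig12545 and 18.39 for contig4019 (edgeR adjusted p of 1.23e-07 and 5.52e-08). It was -17.66 for contig11879 and -17.8 for contig131703 (edgeR adjusted p of 3.47e-06 and 1.89e-07). Leaving out 1 library at a time gave 18.26 to 19.82 for contig12545, 17.98 to 18.68 for contig4019, -18.88 to -16.79 for contig11879 and -21.03 to -17.21 for contig131703, each still called. The -21.03 was without Reg+ uncut replicate 3, which held all the Reg+ uncut reads of contig131703, so the size of that difference rests on few reads.

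The Reg+ libraries gave the second part of each value. Contig12545 had 0.0323, 0.18 and 0.393 CPM in Reg+ amputated replicates 1, 2 and 3, against 151, 137 and 92.5 CPM in Reg+ uncut replicates 1, 2 and 3. Contig4019 had 0.387, 0.405 and 0.429 CPM in Reg+ amputated tissue, against 176, 209 and 238 CPM in Reg+ uncut tissue. Contig11879 had 276, 108 and 53.5 CPM in Reg+ amputated tissue, against 0.07, 0.138 and 0.604 CPM in Reg+ uncut tissue. Contig131703 had 35.8, 37.9 and 33.7 CPM in Reg+ amputated tissue, and in Reg+ uncut tissue 0.129 CPM in replicate 3 and no read in the other replicates. All 4 contigs thus had groups in opposite order in the 2 regions, without overlap. Being named for a large change in Reg- tissue fixes the Reg- part of the difference.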

How the results depend on the processing

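The number of contigs called in Reg- amputated against Reg- uncut tissue was 949 to 1342 with RLE scaling, limma with sample weights, no filter, filterByExpr, unique reads or a robust spread. DESeq2 called 1795 (1066 higher, 729 lower, 59.4% higher), and 1043 of these were among the 1044. A fit to all 12 libraries called 1593, of which 622 were lower. Leaving out 1 library gave 422 to 1155 calls, 269 to 756 of them higher and 153 to 399 lower, with 60.3% to 66.6% higher, against 63.4% with all 6. The number of called interactions was 2815 (without Reg- uncut replicate 3) to 11993 (without Reg- amputated replicate 3), and 2892, 2853 and 3036 without Reg+ amputated replicate 1 or 2 or Reg+ uncut replicate 1. The difference in contigs detected was 505, but -1430 without Reg- amputated replicate 3 and -358 without Reg- uncut replicate 1 (range over libraries left out -1430 to 1530). That in the share of the top 100 contigs was 0.82 percentage points without Reg- amputated replicate 3, the other libraries giving -1.27 to -0.0226. The causes were not tested.

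Amputated and uncut libraries share only the numbers 1 and 3, and the labels do not say what a number stands for. Deviations from the group means correlated at 0.33 for the libraries numbered 1 and at 0.39 for those numbered 3. The crossed pairs gave -0.35 and -0.4, and uncut replicate 4 gave -0.03 with amputated replicate 1 and 0.06 with amputated replicate 3. Deviations cancel within a group, so these values depend on each other and are not separate evidence of pairing. A replicate block over these 4 libraries left 1 residual degree of freedom and gave 0 calls by edgeR (3135 contigs at an unadjusted p under 0.05). The same 4 libraries without the block, a setting chosen after seeing the data, also gave 0 calls by edgeR (3048 at an unadjusted p under 0.05). Both fits leave out amputated replicate 2 and uncut replicate 4, so the number and the choice of libraries changed together. The cause of the lost calls was not tested. With the block the log2 fold change was 9.14 for contig12545, 9.16 for contig4019, -8.62 for contig11879 and -8.04 for contig131703 (edgeR adjusted p from 0.08 to 0.139). In the other 56 refitted values recorded for the 4 named contigs, each kept its direction and its call. The fit to the 4 libraries without the block is not among these, and with 0 calls it called none of the named contigs.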
